A study of Sus scrofa with 12 samples.

Results

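The small intestine of piglets weaned for 7 days was compared with that of piglets weaned for 3 days, using known microRNAs (identifiers with the pig prefix). The comparison rests on 6 of the 12 small RNA libraries of the series, 3 in each group. The other 6 libraries (piglets still feeding from the sow, and piglets weaned for 1 day) entered the fit to share the estimate of spread. They also entered the filter on low counts and the scaling of the libraries. All animals were Sus scrofa of the breed labelled "Big white" (Large White), past 21 days of age, with no treatment named other than weaning, and the tissue field reads intestine cells. Separate animals, the stretch of intestine, sex and litter are not named in the labels. The p-values therefore rest on the spread among libraries, which may be technical. Piglets weaned for longer were also older, and the effects of weaning and of age cannot be told apart.

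MicroRNAs are short RNAs cut from hairpin precursors. An Argonaute protein holds the mature strand, which pairs with messenger RNAs and lowers their translation or stability. A precursor can give a mature strand from either arm (5p or 3p), and precursors encoded close together are often transcribed as one unit. Several microRNAs mark cell types: miR-192, miR-194 and miR-215 are abundant in absorptive gut epithelium, miR-143 and miR-145 in smooth muscle, miR-126 in endothelium, miR-142 and miR-150 in leukocytes, and miR-451 and miR-144 in red blood cells. At weaning the diet changes from milk to solid feed and the intestinal lining is remodelled.

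Total counts ran from 24670093 to 27634092 over the 6 libraries, and counts on known microRNAs from 6987325 to 17705767. The table lists 337 known microRNAs, of which 331 had a count in at least 1 of the 6 libraries and 293 had a count in all 6. No known microRNA was present in all 3 libraries of a group and missing from all 3 of the other. Of the 337, 295 passed the filter on low counts and 42 did not. Levels are given per library, or as mean ± SD over 3 libraries, in normalised CPM, a depth-scaled count whose library sizes were adjusted by TMM factors so that the typical small RNA is level. On this scale the median log2 difference between 7 and 3 days was 0.00 over all 2453 small RNAs tested and -0.22 over the 295 known microRNAs. Each log2 value below from this fit is to be read against -0.22. With 7-day replicate 1 left out of this fit the median of known microRNAs was -0.08. Values from that fit and from those named next are to be read against their own medians. When known microRNAs were scaled and tested alone, called here the known-only fit, their median was 0.02, and it was 0.04 when 7-day replicate 1 was also left out, called here the reduced known-only fit.

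Replicate 1 of the 7-day group stood apart from the other 5 libraries. Known microRNAs took 25.29% of its counts, against 48.29% and 53.57% in the other 7-day libraries and 46.42% to 66.53% at 3 days, while reads in exons, introns and intergenic sequence took 62.17% against 20.97% to 43.18%. It held the lowest level of the 6 libraries for 149 of the 295 known microRNAs, and for 37 its level was under that of all 5 others by over 4-fold, among them miR-194a, miR-194b-5p, miR-215, miR-181a, miR-145-5p and let-7c. For none was it over 4-fold higher than all 5. Whether the large share of exon, intron and intergenic reads bears on its levels was not tested. The leading results are also given without this library.

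No known microRNA passed the test over all small RNAs (0 of 295, or 0%, and 0% of all 2453, edgeR quasi-likelihood test, adjusted p under 0.05). At an unadjusted p under 0.05 there were 30 known microRNAs, or 10.2%, against 7.38% of all small RNAs. Of these 22 (7.46%) were lower at 7 days and 8 (2.71%) higher. With 7-day replicate 1 left out the edgeR count was again 0 (0%), with 33 known microRNAs (11.2%) at an unadjusted p under 0.05. DESeq2 called 3 known microRNAs (1.02%, and 0.652% of all small RNAs), namely miR-676-3p, miR-10b and miR-194a, and limma called none (0%, with 36 or 12.2% at an unadjusted p under 0.05, and 0.0408% of all small RNAs called). With no filter on low counts edgeR called 10 of 337 known microRNAs (2.97%, and 2.17% of all small RNAs). In the known-only fit edgeR called 1 of 295 (0.339%), miR-676-3p. The reduced known-only fit gave 4 calls (1.36%): miR-676-3p, miR-10b and miR-194a, which fell, and miR-144, which rose. The 3-day and 7-day libraries did not overlap for 43 known microRNAs that were lower at 7 days (14.6%, against 4.32% of all small RNAs) and for 10 that were higher (3.39%, against 5.01%). These counts and shares hold for CPM scaled over all small RNAs. On that scale the summed level of known microRNAs was itself apart, at 848400 to 1090000 CPM against 411000 to 713900 at 7 days. Overlap was not counted with known microRNAs scaled alone.

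**Figure D1:**
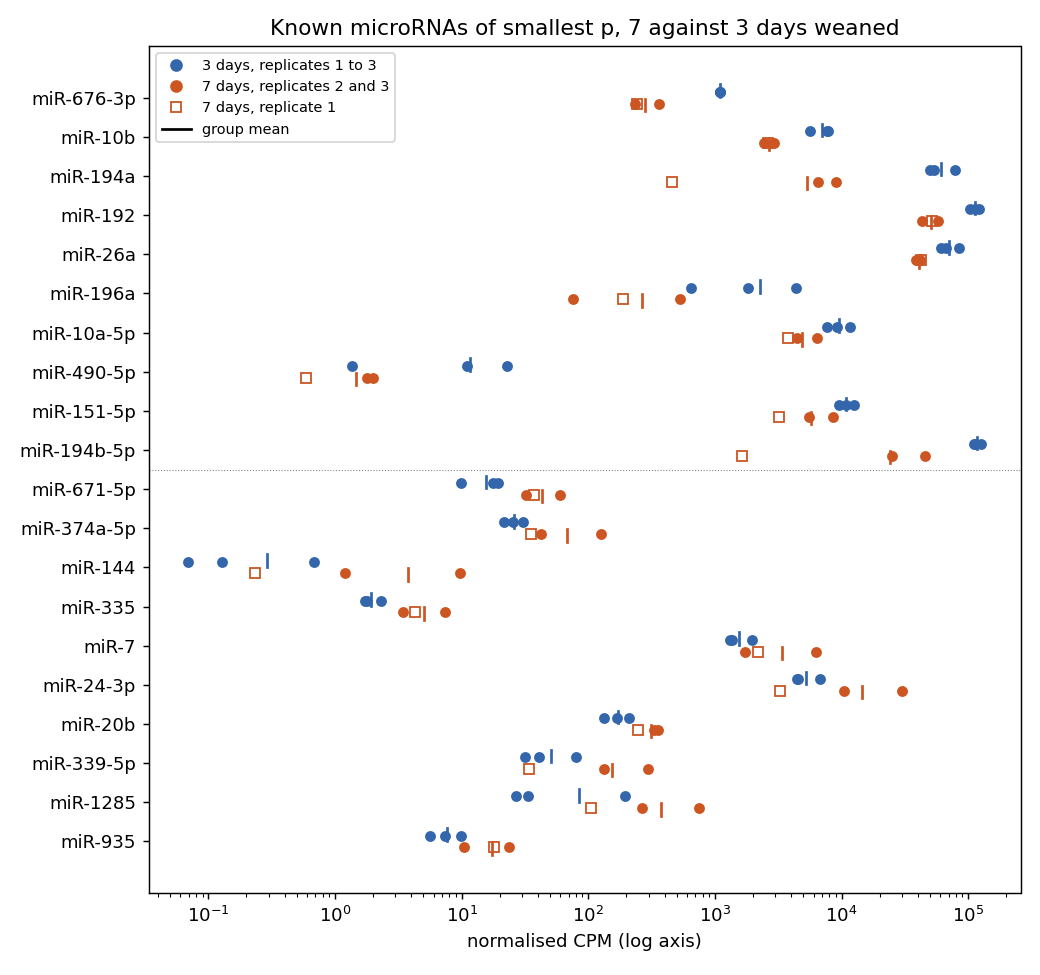
Normalised CPM (log axis) of the 10 known microRNAs of smallest p among those lower at 7 days (above the dotted line) and the 10 among those higher (below it), with 1 point per library and a tick at each group mean. The libraries of both groups stand fully apart for 9 of the 10 lower microRNAs and for 5 of the 10 higher ones, and the open squares mark replicate 1 of the 7-day group. As these microRNAs were chosen by p in this comparison, their standing apart is no further evidence. Of all known microRNAs 14.6% were lower and 3.39% higher without overlap.

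The strongest difference by p was in miR-676-3p, encoded by MIR676-1 (Sscrofa11.1 chromosome X, 56083372 to 56083451) inside the span of EDA, the gene of a ligand of ectodermal development. Its level was 1090, 1106 and 1103 CPM in the 3-day libraries and 241.1, 232.9 and 364.2 in the 7-day libraries. The 3-day libraries lay close together, and all 7-day libraries were far below them. The log2 fold change was -1.98 ± 0.33 (SE), with an edgeR adjusted p of 0.166 over all small RNAs. It fell by 1.74 on the log2 scale in the known-only fit (edgeR adjusted p = 0.0189) and by 1.76 in the reduced known-only fit (edgeR adjusted p = 0.0156). The level at 3 days resembled the 1126 ± 136.2 CPM of the piglets weaned for 1 day, and feeding piglets had 2258 ± 825.3. The other arm, miR-676-5p, was scarce, at 1.043, 0.6998 and 2.507 CPM after 3 days and 1.059, 0.6591 and 1.459 after 7 days, and its groups overlapped.

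MicroRNAs encoded in the HOX clusters, the gene arrays that set position along the body axis, were lower at 7 days in 6 of 6 tested members. The groups did not overlap for 5 of the 6, where 14.6% of all known microRNAs had such groups, and the list's median log2 fold change was -1.23 (-1.14 in the reduced known-only fit). The 6 include both arms of miR-10a and names of nearly alike sequence, so they are not 6 independent results. The list was also chosen with earlier results of these data known. The leading member, miR-10b (MIR10B, chromosome 15 from 81951644 to 81951723, outside any other annotated gene), stood at 5595, 7682 and 7793 CPM after 3 days and at 2640, 2910 and 2421 after 7 days. All 3 libraries at 7 days were alike, and replicate 1 sat between the others. Its log2 fold change was -1.40 ± 0.26 (SE, edgeR adjusted p = 0.166), and it fell by 1.26 in the reduced known-only fit (edgeR adjusted p = 0.0156). Its relative miR-10a-5p (MIR10A, chromosome 12 from 24833644 to 24833723) had 7684, 11730 and 9136 CPM against 3790, 6416 and 4436, a log2 difference of -0.96 ± 0.31 (SE), and the groups did not overlap. The less abundant arm of the same precursor, miR-10a-3p, went the same way, at -1.05 ± 0.45 (SE). As miR-10a-5p and miR-10b are nearly alike in sequence, their sum was taken too, and it was 16540 ± 3084 CPM at 3 days and 7537 ± 1564 at 7 days, a ratio of 2.19, or 2.04 with 7-day replicate 1 left out.

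The miR-196 members of the HOX clusters differed more in size and varied more between libraries. Levels of miR-196a, which has a locus on chromosome 12 (24886316 to 24886395) and another on chromosome 5 (19204442 to 19204548), were 646.2, 4384 and 1821 CPM at 3 days and 189.6, 526.3 and 75.64 at 7 days. Each 7-day library was below each 3-day library, and the spread within both groups was wide. The log2 fold change was -3.11 ± 0.96 (SE), between -4.14 without replicate 2 of the 7-day group and -2.24 without replicate 2 of the 3-day group, and -2.93 with 7-day replicate 1 left out. For miR-196b-5p the levels were 623.8, 2295 and 1590 against 30.35, 419.6 and 21.3 CPM, a log2 difference of -3.26 ± 1.25 (SE) that was -5.89 without replicate 2 of the 7-day group and -2.78 with 7-day replicate 1 left out. Summed over both names the level was 3787 ± 2724 CPM at 3 days and 420.9 ± 458.8 at 7 days. Feeding piglets had 213.2, 1710 and 1727 CPM of miR-196a and 202.9, 2094 and 1007 of miR-196b-5p. For both names feeding replicate 1 thus lay within the 7-day range. The remaining member, miR-615 (within HOXC5, chromosome 5), stood at 57.27, 73.67 and 29.77 against 13.59, 44.34 and 32.13 CPM, with overlapping groups.

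**Figure D2:**
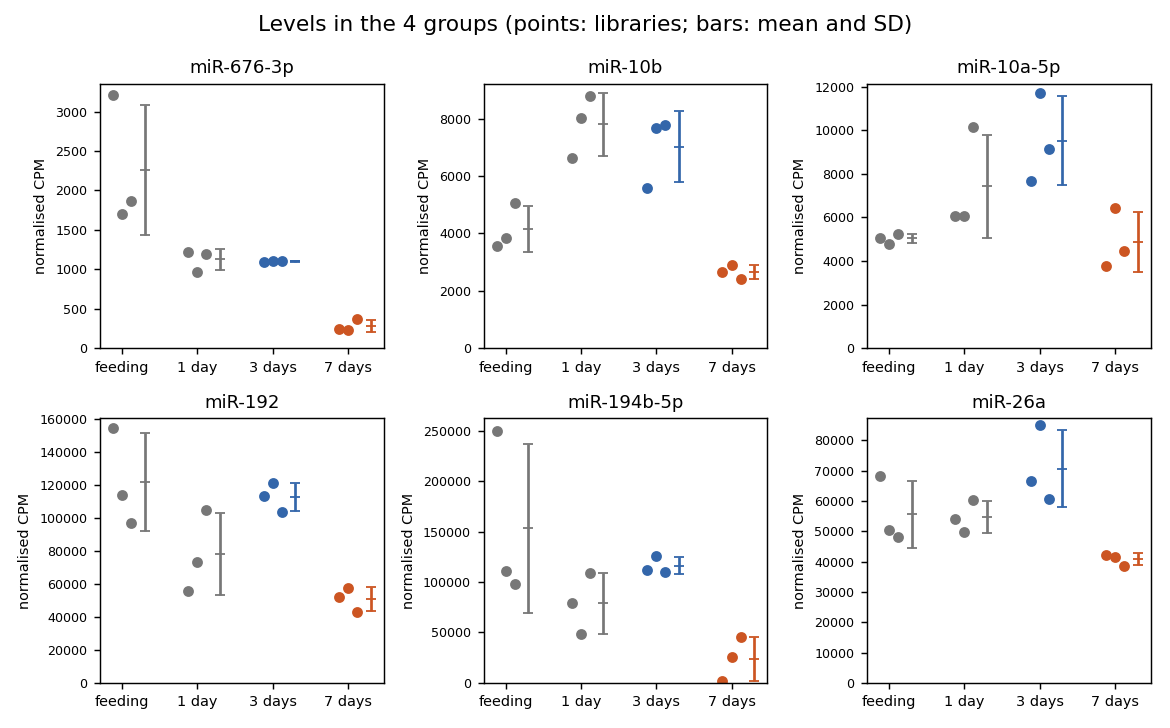
Normalised CPM of 6 microRNAs in each of the 12 libraries by group, with the mean and SD beside the points and axes that start at 0. At 7 days (orange) miR-676-3p, miR-10b, miR-194b-5p and miR-26a lie below all 9 other libraries. For miR-192 a 1-day library (55860 CPM) lies among the 7-day ones, and miR-10a-5p at 7 days (4881 ± 1368 CPM) overlaps with feeding piglets (5033 ± 228).

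The absorptive gut epithelium microRNAs were lower at 7 days in 5 of 5 members, with groups that did not overlap for all 5 (14.6% of all known microRNAs were lower without overlap) and a median log2 fold change of -1.49 (-1.35 in the reduced known-only fit). They are among the most abundant microRNAs of the tissue: together they took 32.72%, 30% and 29.18% of the known microRNA counts at 3 days and 13.2%, 12.56% and 17.2% at 7 days. Their share was 15.68%, 16.8% and 25.05% after 1 day of weaning, which overlaps with the 7-day values, and 26.37% to 42.88% in feeding piglets. In bulk samples such as these, fewer epithelial cells and less of these RNAs per cell cannot be told apart. None of the 5 passed over all small RNAs, and miR-194a passed in the reduced known-only fit. This list too was chosen with earlier results of these data known.

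Of these, miR-192 was measured most evenly, at 113200, 121000 and 103800 CPM after 3 days and 52120, 57250 and 42820 after 7 days. Replicate 1 of the 7-day group was in the middle of its group, and every 7-day library lay well below every 3-day library. The log2 fold change was -1.15 ± 0.28 (SE, edgeR adjusted p = 0.526), and -1.06 in the reduced known-only fit (edgeR adjusted p = 0.0819). Its precursor (MIR192, chromosome 2 from 7285667 to 7285746) lies beside that of miR-194a (MIR194A, 7285466 to 7285541). Levels of miR-194a were 50000, 78900 and 54010 CPM against 458.9, 6504 and 8992. After 1 day of weaning miR-194a was at 14880, 6962 and 14760 CPM, so 1 of these libraries lay within the 7-day range. At 7 days replicate 1 was far under the others of its group, yet the remaining 7-day libraries were also below the 3-day range. The log2 fold change was -3.52 ± 0.85 (SE, edgeR adjusted p = 0.526), and it fell by 2.83 in the reduced known-only fit (edgeR adjusted p = 0.0156). In rank among known microRNAs by mean level, miR-194a went from place 5 at 3 days to place 23 at 7 days.

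The second precursor pair of this group lies on chromosome 10 inside the span of IARS2, a mitochondrial isoleucyl-tRNA synthetase gene. From it, miR-194b-5p, the most abundant known microRNA at 3 days, had 112400, 125700 and 110400 CPM, and at 7 days 1648, 25160 and 45370. Its log2 fold change was -2.27 ± 0.83 (SE), and -1.72 when replicate 1 of the 7-day group was left out. The opposite arm, miR-194b-3p, was at 7.506, 7.38 and 6.841 against 4, 1.798 and 3.418 CPM. Its neighbour miR-215 had 2011, 1600 and 1671 against 5.941, 779.3 and 1095 CPM, a log2 difference of -1.49 ± 1.04 (SE) that was -0.91 with 7-day replicate 1 left out. Since miR-194a and miR-194b-5p are close in sequence and reads may be split between them, their sum was taken too. It was 162400, 204600 and 164400 CPM at 3 days and 2107, 31660 and 54360 at 7 days, a ratio of 6.03, or 4.12 with 7-day replicate 1 left out. These members come from 2 chromosomal sites, so they are not 5 independent results.

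A second epithelial list held the miR-200 family and others. Of this list 5 of 11 members were tested, 4 were lower, and the median log2 fold change was -0.88 (-0.46 in the reduced known-only fit). Untested were miR-200a, miR-200b, miR-200c, miR-141 and miR-203, so miR-429 alone stood for the miR-200 family. The scarce miR-205 was higher, at 1.904 ± 0.108 CPM after 3 days and 2.474 ± 1.601 after 7 days, with overlapping groups. Its log2 difference was 0.38, and 0.90 in the reduced known-only fit. The most abundant, miR-429, a repressor of the transcription factors ZEB1 and ZEB2 that keeps cells epithelial, stood at 6257, 8103 and 5862 CPM against 1354, 4525 and 3413. Its groups did not overlap, at a log2 fold change of -1.12 ± 0.43 (SE), which was -0.77 with 7-day replicate 1 left out. The neighbours miR-182, miR-183 and miR-96-5p on chromosome 18, best known from sensory cells, had lower means at 7 days, with 1442 ± 57.61 CPM at 3 days against 645.6 ± 486.6 at 7 days for miR-182, 1373 ± 138.9 against 797.6 ± 370.9 for miR-183, and 369.4 ± 78.49 against 201.4 ± 147.7 for miR-96-5p. Only miR-182 of these had groups that did not overlap. Its log2 difference was -1.16 over all small RNAs and -1.75 in the reduced known-only fit, where miR-183 was at -0.46 and miR-96-5p at -0.31.

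**Figure D3:**
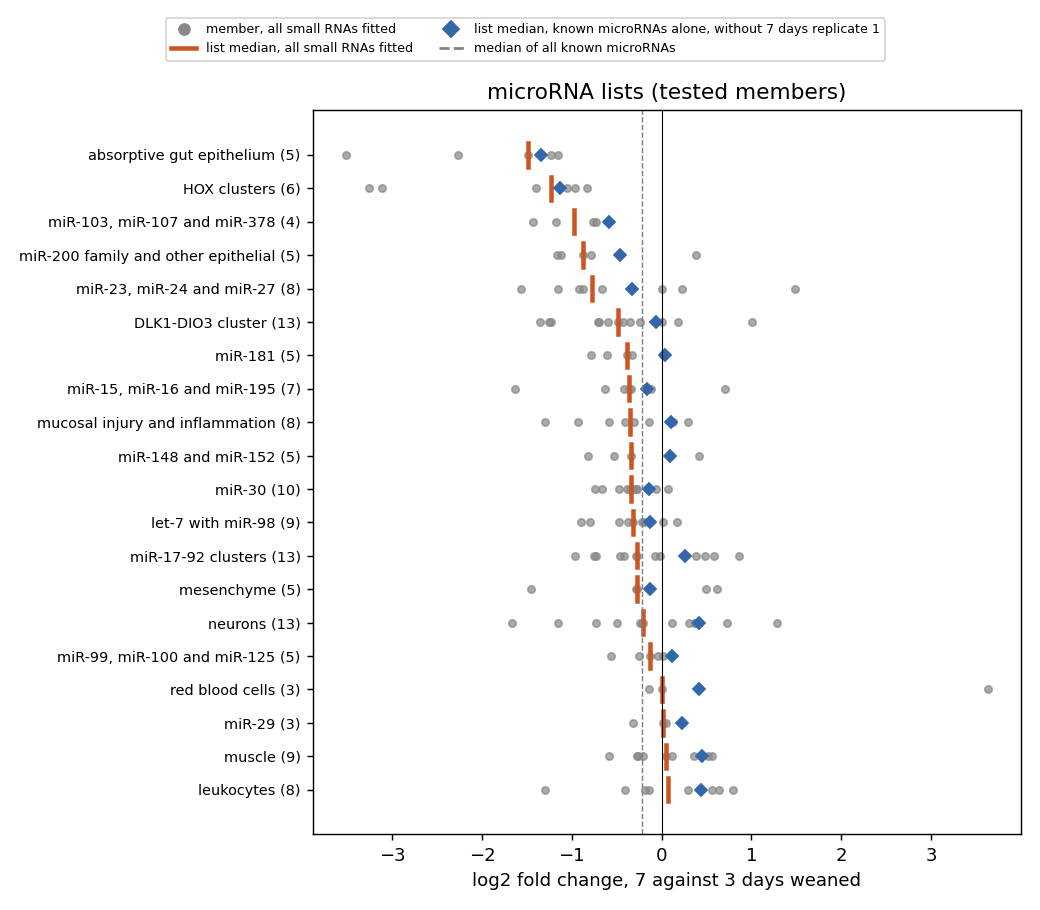
Log2 fold changes (7 against 3 days weaned) of the tested members of each list with at least 3 of them (number in brackets), with the list median over all small RNAs (orange bar) and in the reduced known-only fit (blue diamond). The gut epithelium and HOX lists have the lowest medians, -1.49 and -1.23 (diamonds at -1.35 and -1.14), while the muscle and leukocyte lists have medians of 0.05 and 0.08 (diamonds at 0.45 and 0.44), and the dashed line marks -0.22, the median of all known microRNAs. For the diamonds the median of all known microRNAs is 0.04. The lists were chosen with earlier results of these data known, so their order is no independent evidence.

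The other microRNAs of smallest p that were lower include abundant ones of broad expression. In miR-26a, inside the span of the phosphatase gene CTDSP2 on chromosome 5 (23112744 to 23112827), levels were 66440, 84920 and 60700 CPM at 3 days and 42330, 41640 and 38560 at 7 days. The 7-day libraries were tightly grouped below the 3-day range, and the log2 fold change was -0.79 ± 0.23 (SE, edgeR adjusted p = 0.632). For miR-151-5p, inside the span of the focal adhesion kinase gene PTK2 on chromosome 4, they were 9499, 12470 and 10740 against 3192, 8526 and 5536 CPM. This is a log2 difference of -0.92 ± 0.33 (SE), and -0.64 with 7-day replicate 1 left out. Its other arm, miR-151-3p, had overlapping groups (99.04, 351.6 and 333.7 against 194.4, 287.9 and 147.5 CPM). The low-level miR-490-5p, inside the span of the muscarinic receptor gene CHRM2, had 11.05, 22.71 and 1.358 CPM against 0.588, 1.798 and 2.001, so its groups overlapped. The entry miR-490-3p went the other way at 1.251, 0.0636 and 3.342 against 10.53, 2.696 and 10.29 CPM. A further entry of this precursor, miR-490 without an arm suffix, had 19.88, 23.92 and 10.76 against 4.882, 11.68 and 3.834 CPM. Its groups overlapped too (log2 -1.42), and whether reads were split between these entries was not tested.

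Families with a pair of clusters, miR-23, miR-24 and miR-27, gave mixed directions. Of 8 tested members 5 were lower and 3 higher. From 3 to 7 days, miR-23a stood at 11320 ± 2960 against 6146 ± 2584 CPM, miR-23b at 6633 ± 1737 against 2239 ± 1515 and miR-27b-3p at 9039 ± 1386 against 4051 ± 2736, with no overlap for these 3. In the reduced known-only fit their log2 differences were -0.44, -1.14 and -0.59, from -0.88, -1.57 and -1.16 over all small RNAs. In contrast miR-24-3p, from the same clusters on chromosomes 2 and 10, had 4419, 4538 and 6703 CPM at 3 days and 3255, 29970 and 10440 at 7 days. A single library carried its mean: the log2 difference was 1.48 ± 0.63 (SE), and 0.38 without replicate 2 of the 7-day group, but 1.95 with 7-day replicate 1 left out.

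The microRNAs of smallest p that were higher at 7 days were mostly scarce. The first was miR-671-5p, known in human and mouse to cut the circular RNA of CDR1, at 17.58, 9.861 and 19.22 CPM after 3 days and 37.06, 32.18 and 60.22 after 7 days. All 7-day libraries were above all 3-day libraries, at a log2 fold change of 1.47 ± 0.45 (SE, edgeR adjusted p = 0.632, and 0.0651 in the reduced known-only fit). Its level in feeding piglets was 44.6 ± 9.686 CPM and after 1 day 35.91 ± 6.13, so the 3-day libraries were the low ones. The same shape was seen in miR-20b of the miR-106a-363 cluster on chromosome X, a cluster related to the growth-linked miR-17-92. It stood at 134.1, 168.5 and 211.3 CPM after 3 days, 246.5, 331.1 and 357.7 after 7 days, 291.1 ± 102.6 in feeding piglets and 372 ± 103.4 after 1 day. The 3-day and 7-day libraries did not overlap, and the log2 fold change was 0.86 ± 0.38 (SE). Its cluster partners miR-363, miR-18b and miR-106a did not rise with it, at -0.97, -0.73 and -0.07, all with overlapping groups. In the reduced known-only fit they were at -0.26, -0.20 and 0.65, and miR-20b at 1.14.

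Among the scarcer ones, miR-335, inside the span of the imprinted gene MEST on chromosome 18, had 2.294, 1.718 and 1.776 CPM against 4.294, 3.415 and 7.335. Groups did not overlap for it, nor for miR-935 (7.367, 9.924 and 5.588 against 18, 23.85 and 10.38 CPM) and miR-374a-5p (30.51, 25.64 and 21.46 against 35, 42.6 and 125). Leaving out replicate 3 of the 7-day group took the log2 difference of miR-374a-5p from 1.38 to 0.57. A single library also held up miR-7, typical of enteroendocrine cells, which had 1319, 1365 and 1954 CPM against 2175, 6333 and 1716, with a log2 difference of 1.14 ± 0.48 (SE) that was 0.31 without replicate 2 of the 7-day group. The same library was highest for miR-339-5p (296.8 CPM, against 34 and 133 in the other 7-day libraries and 31.69 to 79.75 at 3 days) and for miR-1285 (744.4 CPM, against 105 and 267.5, and 26.85 to 193.5 at 3 days). Their log2 differences were 1.60 ± 0.71 and 2.14 ± 0.98 (SE), without that library 0.71 and 1.14, and with 7-day replicate 1 left out 2.08 and 2.58.

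Red blood cell microRNAs did not move together. Scarce in all 6 libraries, miR-144 had 0.0695, 0.127 and 0.679 CPM after 3 days and 0.235, 1.198 and 9.794 after 7 days, so the groups overlapped and replicate 3 carried the mean. Its log2 difference was 3.64 ± 1.41 (SE), 1.26 without replicate 3 of the 7-day group, and it rose by 4.31 ± 0.90 (SE) in the reduced known-only fit (edgeR adjusted p = 0.0488). The abundant miR-451, encoded next to it on chromosome 12 inside the span of ERAL1, stood at 3365, 3596 and 2678 CPM against 2805, 3615 and 2337, and miR-486 at 24.97 ± 7.76 against 24.94 ± 11.27.

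**Figure D4:**
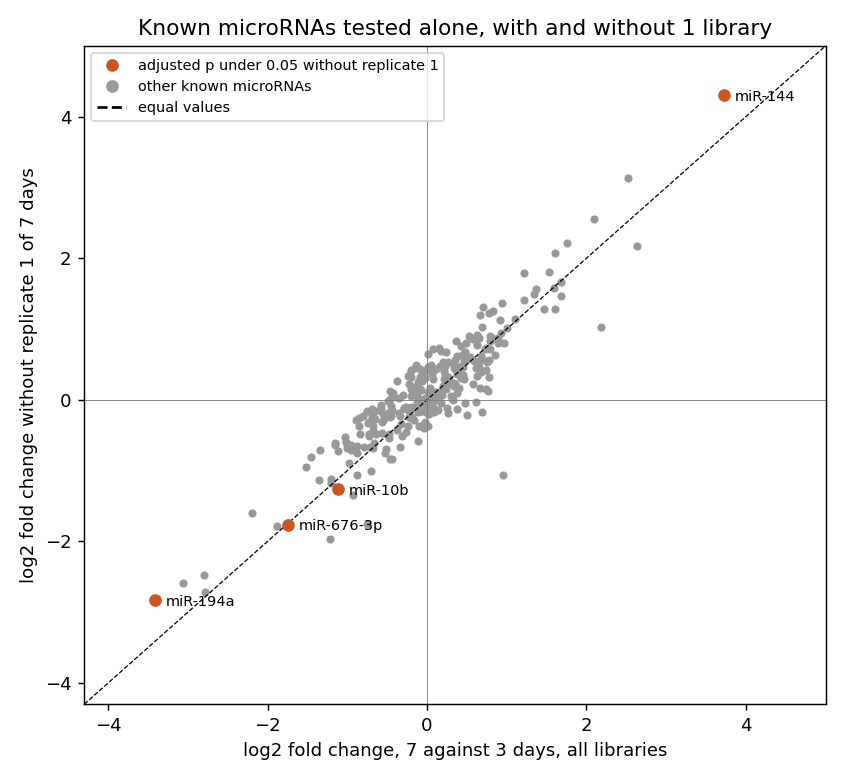
Log2 fold changes (7 against 3 days) of 295 known microRNAs tested alone, with all libraries (horizontal axis) and with 7-day replicate 1 left out (vertical axis), with a dashed line of equal values. The 4 microRNAs with an adjusted p under 0.05 without that library are miR-194a, miR-676-3p and miR-10b at the lower left and miR-144 at the upper right.

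Markers of other cell types in the wall were compared for the same libraries. Muscle microRNAs gave 4 lower and 5 higher of 9 tested members, with a median log2 fold change of 0.05. In the known-only fit 2 were lower and 7 higher, and the median was 0.45 in the reduced known-only fit. By edgeR over all small RNAs 0 members were at an unadjusted p under 0.05, against 10.2% of known microRNAs. The most abundant, miR-143-3p, stood at 34840, 46120 and 33700 CPM against 32080, 35100 and 28150, and the groups overlapped. Its cluster partner miR-145-5p had 1039, 964.7 and 905.5 CPM against 60.71, 886.6 and 1567, where only replicate 1 of the 7-day group was low. Scarcer muscle members had wide spread, with miR-1 at 17.36 ± 3.233 against 25.65 ± 18.99 CPM, miR-133a-3p at 123.1 ± 31.67 against 175.7 ± 67.27, miR-133b at 50.1 ± 15.79 against 51.72 ± 50.48, miR-206 at 3.408 ± 1.875 against 2.822 ± 0.651 and miR-499-5p at 212 to 360 against 130.2 to 263.1. With 7-day replicate 1 left out the log2 difference went from 0.56 to 1.07 for miR-1, from 0.05 to 0.62 for miR-133b and from -0.21 to 0.34 for miR-145-5p. The minor arms miR-143-5p and miR-145-3p were at log2 differences of 0.36 ± 0.97 and 0.12 ± 0.47 (SE).

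Leukocyte microRNAs gave 4 lower and 4 higher of 8 tested members, with a median log2 fold change of 0.08. In the reduced known-only fit 2 were lower and 6 higher, with a median of 0.44. By edgeR over all small RNAs 0 were at an unadjusted p under 0.05, against 10.2% of known microRNAs. The lymphocyte microRNA miR-150 had 5500, 1423 and 2487 CPM at 3 days and 5645, 5385 and 5305 at 7 days. The 7-day libraries were alike, and replicate 1 of the 3-day group matched them, so the groups overlapped (log2 0.80 ± 0.42, SE). The blood cell microRNA miR-142-5p had 52.33, 40.46 and 75.99 against 82.94, 77.24 and 103.1 CPM, without overlap, and its other arm miR-142-3p 112.5, 97.08 and 237.7 against 172.2, 196.4 and 289.2, with overlap. Of the rest, miR-146a-5p, a brake on NF-kB signalling, stood at 3744 ± 1308 against 2829 ± 353.6 CPM, miR-155-5p at 746.7 ± 218.2 against 675.2 ± 466.5, and miR-342 at 823 to 880.2 against 156.4 to 1211. The scarce miR-146b and miR-155-3p were at log2 differences of -1.30 ± 0.79 and 0.30 ± 0.92 (SE), and at -0.80 and -0.01 with 7-day replicate 1 left out. That library was also the lowest for miR-155-5p and miR-342, which turned from -0.14 to 0.30 and from -0.18 to 0.30 without it. Of the endothelial pair, miR-126-3p, from the EGFL7 gene, had 13250, 13270 and 18320 against 12600, 14950 and 11450 CPM with overlap, and miR-126-5p 127.9 ± 1.768 against 201.9 ± 67.53 without.

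Nerve and connective tissue markers gave no common direction either. Of 13 tested neuronal entries 7 were lower and 6 higher, with a median of -0.21, and miR-128, the most abundant, stood at 1049 ± 210.3 CPM at 3 days and 633.2 ± 90.21 at 7 days, without overlap. Mesenchymal members were lower in 3 of 5. In that list miR-199a-3p had 5273, 7459 and 7334 CPM at 3 days and 2008, 946.9 and 4388 at 7 days, a log2 difference of -1.45 ± 0.77 (SE). Its mature sequence is shared with miR-199b-3p, and the sum of both names was 8382 ± 1407 against 5038 ± 2878 CPM, a ratio of 1.66, or 1.28 with 7-day replicate 1 left out.

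Shares of the known microRNA pool gave a second view of the same libraries, and they are compositional, so a smaller share of one list is a larger share of the others. As the gut epithelium list took a smaller share, let-7 with miR-98, a family of differentiated cells, took 9.345%, 9.789% and 8.923% at 3 days and 12.55%, 12.26% and 12.14% at 7 days. On the normalised CPM scale the same list was lower in 7 of 9 members, at a median log2 fold change of -0.32, so the direction of let-7 depended on the scale. Muscle microRNAs took 3.798% to 4.362% against 5.112% to 7.902%, endothelial ones 1.228% to 1.995% against 2.052% to 3.107%, and leukocyte ones 0.731% to 1.09% against 1.52% to 2.133%. HOX cluster members were lower on both scales, at 1.726% to 2.407% of the pool at 3 days and 1.227% to 1.629% at 7 days. Their share was 0.811% to 1.565% in feeding piglets and 1.568% to 2.85% after 1 day of weaning, and both ranges overlap with the 7-day values. The 10 most abundant known microRNAs together held 64.02% to 67.3% of known counts at 3 days and 57.28% to 66.77% at 7 days.

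**Figure D5:**
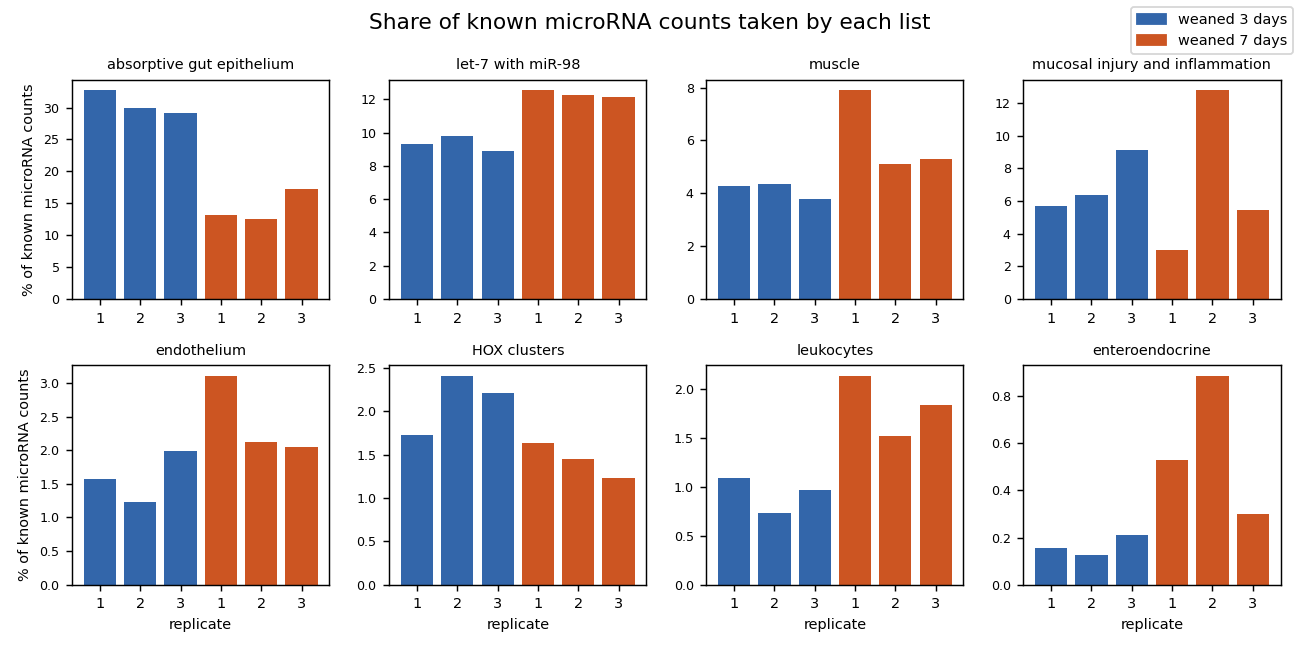
Percent of known microRNA counts taken by the tested members of 8 lists in each of the 6 libraries (bars start at 0). Gut epithelium members took 29.18% to 32.72% at 3 days and 12.56% to 17.2% at 7 days, and for the list of mucosal injury and inflammation the 7-day libraries ran from 2.975% to 12.79%, on either side of the 3-day range.

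The remaining abundant microRNAs gave overlapping groups. Levels of miR-191 were 63830, 66250 and 59610 CPM against 60630, 56150 and 50220, which made it the most abundant known microRNA at 7 days. Those of miR-21, a microRNA of injury and repair, were 42790, 59580 and 76100 against 8133, 85440 and 25680, the widest spread among the abundant ones. Its log2 difference was -0.58 ± 0.63 (SE), -1.82 without replicate 2 of the 7-day group and -0.10 without replicate 1. Next to these, miR-92a had 34460, 54630 and 33160 against 22900, 32980 and 35610 CPM, let-7a 31560, 41830 and 31720 against 26290, 37100 and 28320, and miR-181a 21510, 25070 and 28820 against 2850, 21660 and 19240, where only replicate 1 of the 7-day group was far below (log2 -0.79, and -0.30 with that library left out).

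The other families were described by their counts alone. Lower members numbered 4 of 4 for miR-103, miR-107 and miR-378 (median log2 -0.97), 10 of 13 for the imprinted DLK1-DIO3 cluster (-0.49), 9 of 10 for miR-30 (-0.34), 9 of 13 for the miR-17-92 clusters (-0.28), 6 of 7 for miR-15, miR-16 and miR-195 (-0.37), 6 of 8 for mucosal injury and inflammation (-0.36), 4 of 5 for miR-181 (-0.39), 4 of 5 for miR-99, miR-100 and miR-125 (-0.13), 3 of 5 for miR-148 and miR-152 (-0.34), 1 of 3 for miR-29 (0.01) and 1 of 2 for miR-34 and miR-449. Over all known microRNAs 186 of 295 were lower (63.1%, against 48.1% when they were tested alone). In the reduced known-only fit the medians of mucosal injury and inflammation, miR-17-92, neurons, miR-148 with miR-152, miR-181, and miR-99 with miR-100 and miR-125 were above 0 (0.10, 0.26, 0.42, 0.10, 0.03 and 0.11). In that fit DLK1-DIO3 had 7 of 13 lower (median -0.06) and miR-30 7 of 10 (-0.14). The list of miR-15, miR-16 and miR-195 had 5 of 7 lower (-0.16), and that of miR-103, miR-107 and miR-378 4 of 4 (-0.59). For miR-29 the median was 0.23, and for miR-34 with miR-449 it was 1.34.

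Of 58 precursors with both arms tested, 28 had both arms lower, 7 had both higher and 23 had arms of opposite sign, where 63.1% of all known microRNAs were lower. The pairs of equal sign numbered 35 here and 30 in the known-only fit, so the sign of many pairs depended on the scale. The arms of 47 pairs lay within 1 log2 unit of each other. How often unrelated microRNAs lie as close was not counted, so this number does not show that arms go together. Members encoded within 10000 bases of each other formed 25 groups on the genome, of which 9 had all members lower and 1 all higher, on the scale where 63.1% of known microRNAs were lower (48.1% in the known-only fit). In the reduced known-only fit 3 of these 9 groups had a median above 0. The lowest medians belonged to miR-192 with miR-194a on chromosome 2 (-2.34) and to miR-215 with miR-194b on chromosome 10 (-1.49). The group with all members higher was miR-374a with miR-545 on chromosome X (59602710 to 59602954, median 0.49).

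The classes of small RNA were compared by an exact permutation test over the 6 libraries, two-sided, where 0.1 is the smallest p possible. Known microRNAs took 58.97% ± 10.94 of all counts at 3 days and 42.38% ± 15.04 at 7 days (SD, n = 3; exact permutation p = 0.3, adjusted 0.5), which is -16.59 points, or -8.04 with 7-day replicate 1 left out. Predicted piRNAs took 0.713% ± 0.236 and 1.08% ± 0.146 (exact permutation p = 0.2, adjusted 0.5). Predicted microRNAs took 1.093% ± 0.098 and 1.986% ± 1.496 (exact permutation p = 0.4, adjusted 0.5), which is 0.893 points, or 0.0326 with 7-day replicate 1 left out. Rfam families took 10.43% ± 1.848 and 9.979% ± 2.23 (exact permutation p = 0.8, adjusted 0.8). Reads in exons, introns and intergenic sequence took 28.8% ± 12.47 and 44.57% ± 15.66 (exact permutation p = 0.3, adjusted 0.5), which is 15.78 points, or 6.978 with 7-day replicate 1 left out.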

How the data were processed

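Small RNA libraries of pig small intestine were sequenced by the authors. Per the file headers, the authors deposited a count and a TPM for each identifier of a library, and this TPM equals the CPM of the list within 0.005. Per the submitters' processing notes the build was Sscrofa11.1. For the aligner, the counting tool and the treatment of multiply matching reads: not given in the sources used here. An identifier missing from a list was entered as 0, counts of 8 repeated names were summed, and 3 totals (exon, intron, intergenic; 19.96% to 62.17% of a library) stayed out of library sizes and tests. The members and lists were chosen with earlier results of these data known.

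Counts were fitted with edgeR 4.0.16 (R 4.3.3): filterByExpr (minimum count 10, minimum total 15), TMM factors, a model with 1 mean for each of 4 groups (12 libraries), and its quasi-likelihood test of 7 against 3 days, two-sided, with Benjamini-Hochberg adjustment over 2453 small RNAs and a threshold of 0.05. The script was tested on simulated data, which does not show that differences would be found at the spread of these libraries. As a common biological coefficient of variation, the relative spread within groups, edgeR put it at 129% in the fit of 2453 small RNAs. In the known-only fit it was 45.81%. Alternatives were DESeq2 1.42.0, limma 3.58.1 (prior count 2), DESeq2 size factors, no filter, known microRNAs alone, only the 6 libraries, the largest of repeated counts, and leaving out each library. Named microRNAs were the 10 of smallest p in each direction, their other arms, the 10 most abundant, the most abundant member of each list, and all members of the gut epithelium, HOX, muscle, leukocyte and miR-676 lists; others named were chosen after their values were seen. Counts of names with alike sequences can be split in ways not described. PCR copies are not told apart. Precursor positions are from RefSeq on Sscrofa11.1, matched by name for 65 of 68 named microRNAs. Seed families were not compared, as mature sequences were not used here. No libraries held identical counts and each was counted as 1 sample, which does not show that they are separate animals.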

Additional observations from a re-analysis of the deposited data

How the results depend on the processing

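Over all small RNAs the count past the threshold was 0, and it stayed 0 when any of the 6 libraries was left out, with DESeq2 size factors, with the largest of repeated counts, and in fits of only the 6 libraries (all small RNAs or known microRNAs alone). It was 127 with no filter on low counts (10 of them known microRNAs), 16 with DESeq2 (3 known), 1 with limma (0 known), 1 among known microRNAs alone, and 4 in the reduced known-only fit. The cause was not tested. Without a filter, known calls were miR-676-3p, miR-192, miR-194a, miR-194b-5p, miR-196a, miR-196b-5p, miR-15b and miR-23b below and miR-24-3p and miR-1285 above 3 days. No paired analysis was possible because the labels give no replicate numbers that the groups share. The share of Rfam families differed by -0.448 points, by 3.62 points of named small RNAs only, and by -1.50 to 0.718 with 1 library left out. Among the named microRNAs, these turned upward. Among known microRNAs alone the log2 difference was 0.017 for miR-151-3p, 0.26 for miR-339-3p, 0.094 for miR-191, 0.014 for miR-143-3p, 0.056 for let-7a, 0.064 for miR-126-3p, 0.11 for miR-451, 0.23 for miR-99b, 0.048 for miR-206 and 0.014 for miR-155-5p. With known microRNAs alone in only the 6 libraries it was 0.092 for miR-151-3p, 0.37 for miR-339-3p, 0.19 for miR-191, 0.11 for miR-143-3p, 0.14 for let-7a, 0.16 for miR-126-3p, 0.21 for miR-451, 0.32 for miR-99b, 0.038 for miR-127, 0.14 for miR-206, 0.095 for miR-155-5p and 0.001 for miR-342. In only the 6 libraries it was 0.15 for miR-339-3p, 0.018 for miR-191, 0.003 for let-7a, 0.051 for miR-451, 0.15 for miR-99b, 0.022 for miR-145-5p and 0.089 for miR-155-5p. In the reduced known-only fit it was 0.037 for miR-21, 0.029 for let-7a, 0.16 for miR-99b, 0.35 for miR-127, 0.45 for miR-145-5p, 0.46 for miR-155-5p and 0.42 for miR-342. For miR-133b it turned to -0.024 with DESeq2 size factors and with DESeq2, and to -1.50 with limma. With 1 library left out, ranges that cross 0 were -0.76 to 0.26 (miR-676-5p), -0.033 to 0.63 (miR-671-3p), -0.029 to 0.33 (miR-339), -0.30 to 0.054 (miR-339-3p), -0.29 to 0.12 (miR-99b), -0.92 to 0.39 (miR-127), -0.014 to 0.22 (miR-145-3p), -1.03 to 0.34 (miR-145-5p), -0.91 to 0.62 (miR-133b), -0.19 to 1.10 (miR-155-3p), -0.71 to 0.30 (miR-155-5p) and -0.70 to 0.30 (miR-342). None of these passed the threshold in any fit. Leaving out 1 library moved 22 of the 68 named microRNAs by more than 1.5 times.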

Other observations

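The predicted microRNA novel_mir2 had 474023 counts in replicate 1 of the 7-day group, against 6548 and 9236 in the other 7-day libraries and 48967, 3238 and 9815 at 3 days. The next highest library for it was replicate 1 of the 3-day group, which also had the largest share of reads in exons, introns and intergenic sequence of its group (43.18%). This share was also large in feeding replicate 2 (40.44%) and 7-day replicate 2 (39.38%), which had 9300 and 6548 counts of it. Whether the counts and the share are linked was not tested. In feeding piglets this predicted microRNA had 3404 to 15714 counts and after 1 day of weaning 7848 to 10118.

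Chosen after their values were seen, 2 precursors had arms that went apart by more than 1.5 log2 units at a mean of at least 10 CPM in both arms: miR-221 (miR-221-5p 1.18, miR-221-3p -0.50) and miR-339 (miR-339-5p 1.60, miR-339-3p -0.05). The 3-day and 7-day groups overlapped for each of these entries. For miR-221-5p the SE was 0.59, and 7-day replicate 2 was its highest library (43.44 CPM). Without that library miR-339-5p was at 0.71. A further entry, miR-339 without an arm suffix, was at 0.13 ± 0.40 (SE).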
